A study of Homo sapiens with 6 samples.

Results

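The genes described here are the ZNF-number zinc finger genes of human chromosome 19 in LNCaP prostate cancer cells with and without PACT, the double-stranded RNA binding protein that *PRKRA* encodes. A gene was a member when its NCBI Gene number maps to a protein-coding symbol made of ZNF and a number, when it lies on chromosome 19, and when it had at least 60 counts in sum over the 6 libraries. The annotation holds 240 such genes, the counts list 238 of them, and 216 reached the minimum, out of 29806 gene numbers in all. Of the other 22, 2 had 0 counts in every library, and *ZNF66* and *ZNF723*, which have no row in the counts, were not analysed here. The rule used the summed count but no difference between the groups.

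LNCaP is an androgen-responsive line from a human prostate cancer. LNCaP parental cells (genotype wild type) were compared with LNCaP cells in which *PRKRA* was targeted by CRISPR/Cas9 (PACT KO), with 3 dishes of each. Both were kept in RPMI-1640 with fetal bovine serum, had no further treatment by the labels, and gave RNA 48 h after plating. The PACT KO cells grew from a selected single-cell colony and the parental cells did not, so an effect of the targeting and a property of that clone cannot be told apart, and p-values measure the spread between dishes.

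Most zinc finger genes of chromosome 19 code for transcription factors that carry an array of C2H2 fingers, each a short loop held by a zinc ion that reads a few bases of DNA. Many also carry a KRAB domain at the amino end, which recruits TRIM28 (KAP1), and through it the histone methyltransferase SETDB1 and heterochromatin protein 1, to silence the bound DNA. Many KRAB zinc finger proteins bind transposable elements. The genes arose by tandem duplication and stand in clusters, where neighbours are often alike in sequence.

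The likeness is shown here by 1 finger of *ZNF93* and 1 of *ZNF737*, a pair of members from the same cluster that both rose in PACT KO cells. Each line is the 84 coding bases of a finger and the linker after it, 5′ to 3′, and the capitals mark the 7 bases at which they differ. The *ZNF93* stretch lies at chr19:19933562-19933645 (GRCh38, plus strand) and the *ZNF737* stretch at chr19:20545177-20545260 (minus strand), each in exon 4 of 4 of the transcript used.
ZNF93 finger 2: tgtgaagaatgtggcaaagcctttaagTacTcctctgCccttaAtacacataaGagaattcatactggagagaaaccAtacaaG
ZNF737 finger 6: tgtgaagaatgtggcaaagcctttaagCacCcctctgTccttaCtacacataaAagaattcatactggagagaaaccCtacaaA
The encoded proteins were 79.3% identical over 536 aligned residues.

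The promoters shown are those of members with a false discovery rate under 0.01 and a fold change of at least 1.5. They are shown because they include a near-copy pair. The windows are those of RefSeq (GRCh38.p14), which run from 250 bases before each gene's start, and annotated exons were left out. Capitals mark matches on either strand to the CCAAT box, spelled by its name, to the Sp1 site (a GC box) GGGCGG and to a core of the ETS factor motif, CCGGAAG. The letters TATAAA, known as the TATA box, and a core of the NRF1 motif, TGCGCA, were searched as well. None of the 5 strings contains another. The *ZNF93* piece is chr19:19900696-19900912 (plus strand), that of *ZNF737* chr19:20565810-20566031 (minus strand), that of *ZNF578* chr19:52453303-52453552 (plus strand) and that of *ZNF132* chr19:58440223-58440403 (minus strand).
ZNF93: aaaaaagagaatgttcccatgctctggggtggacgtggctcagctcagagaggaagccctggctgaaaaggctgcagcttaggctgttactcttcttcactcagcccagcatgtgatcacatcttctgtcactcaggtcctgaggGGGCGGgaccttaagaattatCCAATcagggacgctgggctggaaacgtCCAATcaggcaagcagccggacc
ZNF737: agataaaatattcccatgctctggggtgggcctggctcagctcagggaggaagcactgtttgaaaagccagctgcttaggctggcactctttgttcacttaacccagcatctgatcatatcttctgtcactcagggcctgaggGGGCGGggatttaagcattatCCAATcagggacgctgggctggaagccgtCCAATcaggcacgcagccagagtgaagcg
ZNF578: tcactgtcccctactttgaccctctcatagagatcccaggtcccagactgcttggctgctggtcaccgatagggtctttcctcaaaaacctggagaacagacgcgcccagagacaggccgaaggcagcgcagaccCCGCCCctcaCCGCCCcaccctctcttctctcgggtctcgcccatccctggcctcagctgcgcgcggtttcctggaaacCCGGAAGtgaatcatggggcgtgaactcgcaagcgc
ZNF132: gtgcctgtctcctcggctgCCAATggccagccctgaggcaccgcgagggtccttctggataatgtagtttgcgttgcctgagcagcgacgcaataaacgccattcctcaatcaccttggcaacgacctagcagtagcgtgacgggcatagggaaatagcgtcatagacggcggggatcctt
The *ZNF93* and *ZNF737* pieces were identical at 186 of 214 aligned bases (86.9%), and both hold the GC box and the CCAAT pair in the same order. The *ZNF93* and *ZNF132* pieces were identical at 57.9%. *ZNF253* and *ZNF665* have no entry in the promoter table. *ZNF491* is named only.

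Library totals over genes ranged from 21835590 to 24940838 reads in parental and from 19930060 to 24484415 reads in PACT KO cells. *PRKRA* had 882, 809 and 866 counts in the parental libraries and 291, 331 and 243 in the PACT KO libraries. It fell from 37.1 ± 1.96 to 12.5 ± 0.995 CPM (counts as a rate per library total, with totals scaled by TMM, mean ± SD, n = 3), so its RNA was lower but still present. Of the luminal prostate markers searched, *KRT8* was at 459 ± 12.5 CPM in parental and 433 ± 6.34 CPM in PACT KO cells, and *FOLH1* at 1402 ± 7.29 and 1556 ± 22.8 CPM. *KLK3* was lower, at 63.8 ± 2.70 and 11.3 ± 0.568 CPM. Basal markers (*KRT5*, *KRT14*, *TP63*) summed to at most 0.185 CPM, leukocyte markers (*PTPRC*, *CD3E*, *CD68*) to 1.46 to 2.26 CPM, and *PECAM1* and *CDH5* of endothelium were at 0. *COL1A2* of fibroblasts was at 0, and *DCN* and *LUM* had at most 6 counts in a library. *COL1A1* rose from 29.02 ± 1.39 to 41.7 ± 2.76 CPM and *VWF* fell from 25.4 ± 1.43 to 16.6 ± 1.03 CPM, and their part in the results below was not tested.

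The question was how the level of these genes differed between PACT KO and LNCaP parental cells. More members were higher than lower in PACT KO cells, and most changes were small. In bulk libraries such as these, fewer cells expressing a gene and less of its RNA per cell cannot be told apart. Called at a false discovery rate (FDR, Benjamini-Hochberg over 14462 genes) under 0.01 by edgeR's quasi-likelihood test, 40 of 216 members rose (18.5%) and 7 fell (3.24%), while 169 did not pass. Over all genes tested, 15.3% rose and 18.8% fell. The share of members that rose was thus near the background, and the share that fell was well under it. Of the 47 members called, 40 changed by less than 1.5-fold. Adding that fold to the FDR gives the differentially expressed genes (DEGs), and 5 members (2.31%) were upregulated and 2 (0.926%) downregulated, against 3.07% and 2.65% of all genes tested.

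The median log2 fold change of the members, PACT KO over parental, was 0.11, against 0.00 for all genes tested. It was above 0 in 158 members and below 0 in 58, with a range of -0.93 to 1.10. The highest library of one group lay under the lowest of the other in 91 members (42.1%), of which 74 were higher and 17 lower in PACT KO cells. Such separation was found in 52.2% of all genes tested. Taking each library against the parental mean, the median over members was -0.01, 0.00 and 0.01 in the parental libraries and 0.13, 0.08 and 0.09 in the PACT KO libraries. The 3 PACT KO libraries were all above the 3 parental ones. In CPM, the members summed to 4278, 4340 and 4345 in the parental libraries and to 4762, 4618 and 4682 in the PACT KO libraries, or 4321 ± 37.0 and 4687 ± 71.8 (mean ± SD, n = 3).

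**Figure D1:**
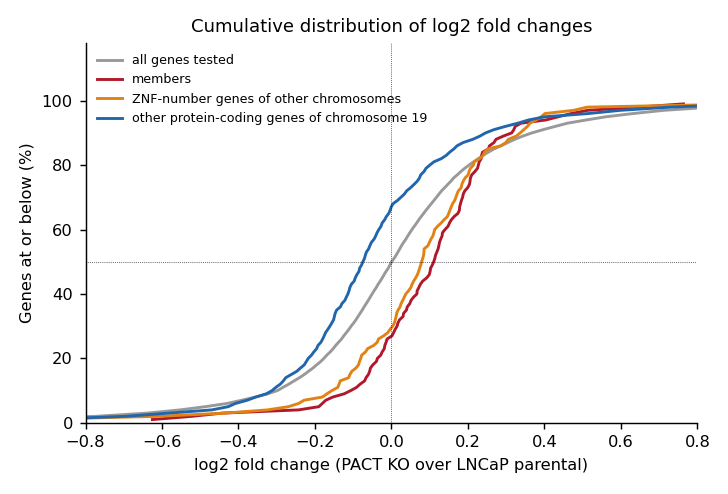
Cumulative share of genes (y axis, percent) at or below each log2 fold change of PACT KO over LNCaP parental cells (x axis), for all genes tested, the members, ZNF-number genes of other chromosomes and other protein-coding genes of chromosome 19. The members' curve crosses 50% at 0.11 and the curve of other chromosome 19 genes at -0.07.

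The other genes of chromosome 19 leaned the other way. The 718 other protein-coding genes of the chromosome that could be tested had a median log2 fold change of -0.07. Of these, 63 rose (8.77%) and 217 fell (30.2%), against 15.3% and 18.8% of all genes tested. ZNF-number genes on other chromosomes were closer to the members, with a median of 0.08 over 208 genes. Of these, 44 rose (21.2%) and 17 fell (8.17%). They held 4 upregulated and 5 downregulated DEGs. The plot of cumulative shares sets these distributions side by side, and the differences between them were not tested.

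The largest rise among the members was that of *ZNF737*, a KRAB gene with 13 fingers at chr19:20530276-20565781. It had 17.5, 17.9 and 17.8 CPM in the parental libraries and 40.6, 35.1 and 38.9 CPM in the PACT KO libraries. Every PACT KO library was far above the parental libraries, which were nearly equal. The log2 fold change was 1.10 ± 0.06 (SE, as for every log2 fold change below), with an FDR of 1.4e-17 in edgeR.

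*ZNF253*, with a KRAB box and 11 fingers at chr19:19865830-19894674, was at 18.3, 19.9 and 21.3 CPM in parental cells and at 36.7, 35.8 and 38.8 CPM in PACT KO cells. The groups did not overlap, and the log2 fold change was 0.90 ± 0.06 (edgeR FDR 3.1e-15). *ZNF93*, its neighbour at chr19:19900946-19935575, is known as a repressor of LINE-1 elements and has 16 fingers. Its levels were lower, at 4.23, 5.46 and 4.28 CPM in parental and 7.33, 7.77 and 8.61 CPM in PACT KO libraries. Here too every PACT KO library was above every parental library, with a log2 fold change of 0.76 ± 0.11 (edgeR FDR 7.7e-07). In pairs, the proteins of these members were alike over most of their length, with an identity of 74.95% for *ZNF253* and *ZNF737* and 73.7% for *ZNF253* and *ZNF93*. At most 5.99% of the 50-base stretches of any of the 3 transcripts occurred in a transcript of another counted gene.

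The other upregulated DEGs lay in other clusters. *ZNF578* (10 fingers, KRAB, chr19:52453553-52516882) had 4.45, 4.44 and 5.57 CPM in parental cells and 8.30, 9.09 and 7.17 CPM in PACT KO cells, without overlap. Its log2 fold change was 0.76 ± 0.11 (edgeR FDR 7.7e-07), and 11.7% of its 50-base stretches are also found in other counted genes, chiefly *ZNF808*. *ZNF491* (10 fingers and no KRAB box match, chr19:11798523-11808503) was a low gene, with 50, 40 and 37 counts in parental and 73, 74 and 57 counts in PACT KO libraries. The counts correspond to 2.202, 1.85 and 1.49 CPM against 2.95, 3.04 and 2.82 CPM. The groups did not overlap, but the call (log2 fold change 0.68 ± 0.17, edgeR FDR 9.0e-04) was lost without parental replicate 3, where the log2 fold change was 0.54 with an FDR of 0.0141.

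Both downregulated DEGs are KRAB genes from the long arm. *ZNF132* (17 fingers, chr19:58432814-58440153) had 7.97, 8.001 and 8.92 CPM in parental cells and 6.35, 4.73 and 4.90 CPM in PACT KO cells. The 3 PACT KO libraries were all below the parental ones, and the log2 fold change was -0.64 ± 0.11 (edgeR FDR 1.2e-05). Its fold change fell under 1.5 without parental replicate 3 (log2 -0.58), PACT KO replicate 2 (-0.55) or PACT KO replicate 3 (-0.58), with the FDR still under 0.01. *ZNF665* (18 fingers, chr19:53162424-53193358) had 30, 40 and 31 counts in parental libraries and 12, 31 and 10 in PACT KO libraries. PACT KO replicate 2 lay within the parental range, so that the groups overlapped. Its log2 fold change of -0.93 ± 0.29 passed narrowly (edgeR FDR 0.00873), and leaving out any library but PACT KO replicate 2 raised the FDR to between 0.0111 and 0.0817. In the other 46 called members the groups did not overlap.

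**Figure D2:**
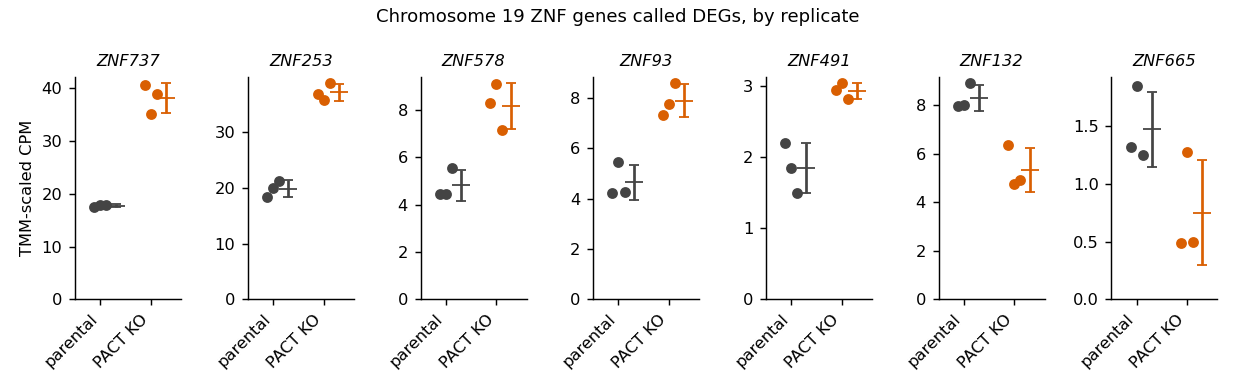
TMM-scaled CPM (y axis, from 0, with its own scale in each panel) of the 7 members called DEGs in the 3 LNCaP parental and 3 PACT KO libraries (x axis). Points are libraries and the bars beside them show mean and SD. *ZNF737* and *ZNF253* reach about 37 to 38 CPM on average in PACT KO cells, and *ZNF665* is the member whose groups overlap.

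Among the smaller falls, *ZNF844* went from 13.8, 15.9 and 13.5 CPM to 9.63, 10.3 and 9.55 CPM, without overlap (log2 fold change -0.55 ± 0.09, edgeR FDR 3.5e-06). *ZNF415* (-0.44 ± 0.13), *ZNF671* (-0.44 ± 0.10), *ZNF473* (-0.26 ± 0.07) and *ZNF468* (-0.16 ± 0.05) were the remaining members that fell. *ZNF473* codes for a protein of histone pre-mRNA processing, also called ZFP100, and had 23.7, 21.6 and 19.9 CPM in parental against 18.7, 17.7 and 17.9 CPM in PACT KO libraries. Its groups were close but did not overlap, and the call was lost without parental replicate 1 or 2 or PACT KO replicate 2 or 3 (edgeR FDR 0.0107 to 0.0542). That on *ZNF468* was lost without any library but PACT KO replicate 2 (edgeR FDR 0.0118 to 0.0314).

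The 40 members that rose had log2 fold changes from 0.15 (*ZNF766*) to 1.10, and 35 of them stayed under 1.5-fold. *ZNF83*, with 14 fingers, was the clearest of these. It had 56.2, 55.2 and 56.9 CPM in parental cells and 80.3, 70.8 and 86.5 CPM in PACT KO cells. The parental libraries agreed closely and all PACT KO libraries were above them, with a log2 fold change of 0.49 ± 0.05 (edgeR FDR 2.3e-11). *ZNF506*, next to *ZNF253* in gene order, was at 7.27, 7.68 and 7.67 CPM in parental and 11.5, 9.005 and 12.2 CPM in PACT KO libraries (0.53 ± 0.10, edgeR FDR 5.6e-05). *ZNF546* had 7.97, 8.09 and 7.99 CPM against 11.3, 11.3 and 11.0 CPM, with narrow spread in both groups (0.48 ± 0.09, edgeR FDR 3.7e-05).

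**Figure D3:**
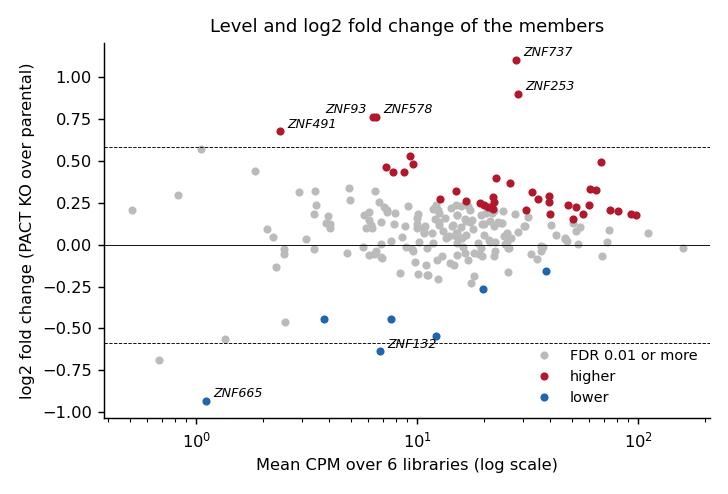
Log2 fold change of PACT KO over LNCaP parental cells (y axis) against mean CPM over the 6 libraries (x axis, log scale), with 1 point for each of the 216 members, coloured by call at an FDR under 0.01. Dashed lines mark 1.5-fold. The 7 DEGs are named, and most called members lie between the dashed lines.

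The annotated genes were placed in clusters by splitting their order along the chromosome wherever the next gene began over 1 Mb away (GRCh38). Of 16 clusters, 9 held 3 or more members and 210 members together. The cluster from 19.7 to 24.1 Mb, on the short arm near the centromere, had the highest share of members that rose among the clusters with 3 or more members. Of its 25 members 11 rose (44.0%) and 0 fell in edgeR, against 15.3% and 18.8% of all genes tested. At an unadjusted p under 0.05, 1 was lower (*ZNF681*, log2 fold change -0.56 ± 0.23, edgeR FDR 0.0419), and DESeq2 and limma-voom called 0 lower and 10 and 11 higher. Its median log2 fold change was 0.23, and 22 of the 25 were above 0. The cluster holds *ZNF737*, *ZNF253*, *ZNF93* and *ZNF506*. The other members that rose there were *ZNF429* (0.40 ± 0.07), *ZNF254* (0.33 ± 0.04), *ZNF675* (0.28 ± 0.07), *ZNF43* (0.27 ± 0.05), *ZNF431* (0.26 ± 0.07), *ZNF91* (0.23 ± 0.04) and *ZNF493* (0.23 ± 0.07). *ZNF91*, a repressor of SVA elements with 31 fingers, the most of any member, had 44.97, 49.6 and 49.7 CPM in parental and 57.6, 55.2 and 56.1 CPM in PACT KO cells, without overlap. The other 14 members of the cluster did not pass, among them *ZNF100* (-0.02 ± 0.06), *ZNF85* (0.08 ± 0.08) and *ZNF714* (0.09 ± 0.04).

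Few other genes lie in that stretch. The 3 that were tested inside it had a median log2 fold change of 0.23, with 2 higher and 1 lower. The 24 tested within 1 Mb on either side of it had a median of 0.00, with 4 higher and 6 lower. DNA copy number was not measured. The proteins of this cluster were the most alike among the clusters with 3 or more members, with a median identity of 71.5% over 300 pairs, against 43.2% to 59.9% in the others.

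In the cluster from 51.6 to 53.6 Mb, 11 of 38 members rose (28.9%) and 3 fell (7.89%) in edgeR, with a median of 0.10. Of all genes tested 15.3% rose and 18.8% fell. The 3 that fell in this cluster were *ZNF665*, *ZNF415* and *ZNF468*. DESeq2 called 6 higher and 0 lower there, and limma-voom 11 higher and 2 lower. Calls thus went in each direction in edgeR and limma-voom, while those in DESeq2 were all higher. The edgeR estimate was below 0 in 10 of the 38 members. *ZNF83* and *ZNF528* (0.32 ± 0.04) rose by amounts well over their errors, while *ZNF468* fell in edgeR but did not pass in DESeq2. In the cluster from 7.1 to 9.8 Mb, 4 of 13 rose (30.8%) and 0 fell, with a median of 0.10. At an unadjusted p under 0.05, 1 was lower in edgeR, while DESeq2 called 0 lower. The rises were led by *ZNF266*, at 54.3, 54.0 and 56.0 CPM in parental and 64.0, 62.2 and 67.6 CPM in PACT KO libraries. In that from 11.5 to 12.6 Mb, 4 of 22 rose (18.2%) and 1 fell (4.55%), with a median of 0.13. The share that rose was near that of all genes tested. *ZNF627* had the smallest p of those that rose (0.24 ± 0.04) and *ZNF844* was the gene that fell.

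The largest cluster, from 55.5 to 58.5 Mb, had 5 of 55 members higher (9.09%), 2 lower (3.64%, *ZNF132* and *ZNF671*) and a median of 0.04. Both shares were under those of all genes tested, 15.3% and 18.8%. *ZNF580*, a gene of 3 fingers without a KRAB box match, rose there from 29.1, 30.3 and 28.5 CPM to 35.7, 35.9 and 37.9 CPM (0.32 ± 0.05, edgeR FDR 3.9e-06). In the cluster from 36.2 to 37.8 Mb, 3 of 24 rose (12.5%), with *ZNF260* at the smallest p (0.20 ± 0.04). In that from 43.5 to 45.1 Mb 1 of 24 did (4.17%), *ZNF226* (0.22 ± 0.07). The call on *ZNF226* was lost without any of parental replicates 1 to 3 or PACT KO replicates 2 and 3 (edgeR FDR 0.0108 to 0.0540). Both clusters nevertheless had medians above 0, at 0.13 and 0.15. The clusters at 2.8 to 2.9 Mb and 34.7 to 35.0 Mb, with 4 and 5 members, had 0 members past the threshold in edgeR or DESeq2, and each had 1 member higher and 0 lower at an unadjusted p under 0.05.

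Of 202 pairs of members that are next to each other within a cluster, both rose in 8, and the directions were opposite in 4, while no pair of neighbours fell together. With only 7 members lower in all, few pairs could have fallen together. The pair counts were not set against an expected number, so they show no pattern between neighbours. The plot of members in chromosome order shows the group of high values in the 19.7 to 24.1 Mb cluster and single genes elsewhere.

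**Figure D4:**
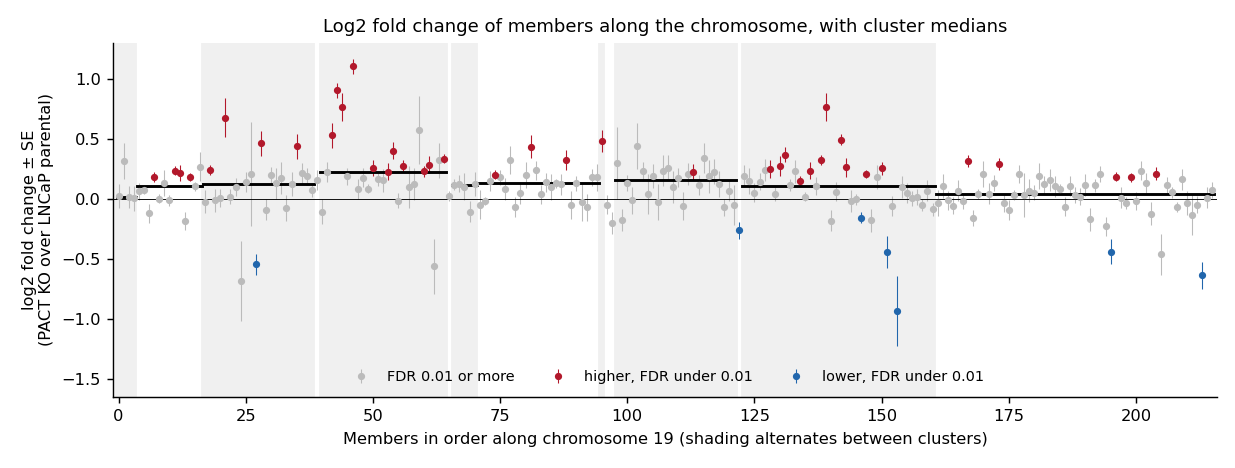
Log2 fold change ± SE of PACT KO over LNCaP parental cells (y axis) for the 216 members in their order along chromosome 19 (x axis, rank), coloured by call at an FDR under 0.01. Shading alternates between clusters and black bars are medians of clusters with 3 or more members. The median bar at 0.23 belongs to the cluster from 19.7 to 24.1 Mb.

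A match to the A box of the KRAB domain was found in the coding sequence of 184 members. Of these 35 rose (19%) and 7 fell (3.8%), with a median log2 fold change of 0.12. Of the 32 without a match 5 rose (15.6%) and 0 fell in edgeR, with a median of 0.03 (3 lower at an unadjusted p under 0.05, and 0 lower by DESeq2). The 5 were *ZNF491*, *ZNF83*, *ZNF345*, *ZNF580* and *ZNF260*. A missed match does not show that the domain is absent. The number of C2H2 fingers ranged from 0 to 31 with a median of 12, and its correlation with the log2 fold change across the 216 genes was 0.05 (Pearson) and 0.08 (Spearman), a description across genes that share libraries. Of the 39 members with 17 or more fingers 10 rose (25.6%) and 3 fell (7.69%), and of the 43 with at most 8 fingers 6 rose (14%) and 1 fell (2.33%). Among all genes tested 15.3% rose and 18.8% fell, and the differences between these sets of members were not tested.

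The members were expressed at modest levels, with a median of 15.04 CPM (range 0.512 to 159), under the 27.7 CPM of all genes tested. *ZNF146*, which has fingers but no KRAB box match, was the highest, at 160 ± 2.35 CPM in parental and 158 ± 5.65 CPM in PACT KO cells. It was followed by *ZNF358* at 108 ± 3.59 and 113 ± 4.73 CPM. Neither passed the test (edgeR FDR 0.639 and 0.0809). *ZNF587*, *ZNF561* and *ZNF260*, the next by CPM, all rose, with log2 fold changes of 0.18 ± 0.04, 0.18 ± 0.03 and 0.20 ± 0.04. Per kilobase of exon, which allows levels to be compared between genes, *ZNF358* was above *ZNF146*, with 52.2 against 38.7 CPM per kb in parental cells and 54.8 against 38.1 CPM per kb in PACT KO cells. The median member was at 2.87 CPM per kb.

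Rises were most frequent among the most abundant members. Of the 72 members with the highest CPM 26 rose (36.1%) and 1 fell (1.39%), where 17.4% and 24.5% of all genes between the same levels did. Of the 72 in the middle 6 rose and 2 fell (8.33% and 2.78%, against 15.7% and 11.5%), and of the 72 lowest 8 rose and 4 fell (11.1% and 5.56%, against 11.7% and 7.31%). The median log2 fold changes of these 3 sets were 0.12, 0.08 and 0.12. The median SE was 0.05, 0.08 and 0.11 from the highest to the lowest, so a small difference was harder to detect at lower levels. The part of this precision in the shares was not tested.

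Just inside the count minimum were *ZNF878*, *ZNF763* and *ZNF575*, with 69, 94 and 116 counts in sum. None passed the test. Just outside were *ZNF626* with 2, 1 and 2 parental and 10, 12 and 8 PACT KO counts, *ZNF556* with 7, 5 and 7 against 3, 6 and 2, and *ZNF486* with 2, 0 and 0 against 7, 5 and 15.

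Because the genes are alike, some counts may be split between copies. In 26 members over 10% of the 50-base stretches of the transcripts were also found in another counted gene, and in 64 members exons overlapped those of another counted gene. Where genes overlap on opposite strands, their reads cannot be told apart without strand. Where they overlap on the same strand, as *ZNF625* and *ZNF625-ZNF20* do, strand does not separate them. The use of strand is not given in the sources used here. Leaving out both kinds left 141 members, of which 27 rose and 5 fell, with a median log2 fold change of 0.11. The pair with the most alike proteins was *ZNF587* and *ZNF417*, at 98.1% identity. *ZNF587* rose (0.18 ± 0.04) and *ZNF417* gave 0.23 ± 0.08 without passing (edgeR FDR 0.0139), and both values are uncertain as a split of shared reads.

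Other alike pairs were *ZNF799* and *ZNF443* (93.0%), *ZNF419* and *ZNF773* (91.9%), *ZNF28* and *ZNF468* (91.2%), and *ZNF611* and *ZNF600* (89.4%). In these pairs *ZNF468* fell and *ZNF611* rose (0.26 ± 0.08), while the partners were at -0.01 ± 0.05 (*ZNF28*) and -0.02 ± 0.09 (*ZNF600*). *ZNF320*, which rose (0.21 ± 0.04), shares 93.4% of its 50-base stretches with other counted genes, chiefly *ZNF468*, whose exons it overlaps and which fell. *ZNF625*, which rose (0.46 ± 0.10), shares all of them with the readthrough gene *ZNF625-ZNF20*. The values of *ZNF320*, *ZNF468* and *ZNF625* are uncertain for that reason.

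The promoter table held 191 of the 216 members. CCGGAAG was found in 44.0% of their 300-base windows, against 14.2% of those of all protein-coding genes, 18.3% of other protein-coding genes of chromosome 19 and 39.2% of ZNF-number genes of other chromosomes. The set of all protein-coding genes had no count minimum, while the members and the other sets needed at least 60 counts, so it is not matched for expression. TGCGCA was in 19.9% of members' windows and 10.8% of all, and closer to the members in ZNF-number genes of other chromosomes (17.05%) and other genes of chromosome 19 (16.2%). GGGCGG was in 68.6% of members' windows, 58.5% of all and 61.4% of those of other ZNF-number genes, but in 76.6% of those of other chromosome 19 genes. CCAAT was in 50.8% of members' windows, against 36.4%, 45.5% and 41.2% in all, other ZNF-number and other chromosome 19 genes, and TATAAA in 2.09%, against 9.63%, 5.11% and 5.52%. The median number of CpG dinucleotides was 21 in members and 22 over all. It was 8 in *ZNF737*, 10 in *ZNF93* and 9 in *ZNF491*, 21 in *ZNF578* and 20 in *ZNF132*. Of the 64 members with the fewest CpG (2 to 18 a window), 17 rose (26.6%) and 3 fell (4.69%), with a median log2 fold change of 0.17. Of the 64 with the most (24 to 42), 10 rose (15.6%) and 1 fell (1.56%), with a median of 0.07. The shares among all genes tested were 15.3% and 18.8%. The correlation of CpG number with log2 fold change across the 191 genes was -0.20 (Pearson) and -0.23 (Spearman), again a description across genes of the same libraries. These sets were formed after the values were seen.

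The partners through which KRAB proteins act include genes called in each direction. Of 31 genes of the KRAB corepressor and of heterochromatin, all tested, 11 fell (35.5%), 6 rose (19.4%) and 14 did not pass, with a median log2 fold change of -0.04. Over all genes tested 18.8% fell and 15.3% rose, so the share that rose was near the background. The list was not matched for level, and among all genes at the levels of the 72 highest members 24.5% fell and 17.4% rose. Some genes of the list, such as *TRIM28*, lay above those levels (21.2 to 159 CPM). *TRIM28* had 564, 551 and 539 CPM in parental and 493, 500 and 500 CPM in PACT KO libraries, without overlap (-0.15 ± 0.03, edgeR FDR 1.3e-05). *SETDB1*, the histone H3 lysine methyltransferase of the complex, did not pass (-0.04 ± 0.03, FDR 0.394), nor did its partner *ATF7IP* (0.07 ± 0.04, FDR 0.0873).

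The 5 genes of the list with the smallest p were *DNMT1*, *UHRF1*, *CBX5*, *TASOR* and *DAXX*. *DNMT1*, the maintenance DNA methyltransferase, fell from 168, 173 and 175 CPM to 135, 132 and 136 CPM (-0.36 ± 0.03). *UHRF1*, which brings DNMT1 to newly replicated DNA, fell from 23.4, 25.6 and 23.9 CPM to 14.4, 15.2 and 15.1 CPM (-0.71 ± 0.07) and was the only DEG of the list. *CBX5*, which codes for heterochromatin protein 1 alpha, fell by 0.24 ± 0.03 on the log2 scale and *DAXX*, a histone H3.3 chaperone, by 0.27 ± 0.04. *TASOR*, the scaffold of the HUSH silencing complex, rose by 0.29 ± 0.04, as did the DAXX partner *ATRX* (0.21 ± 0.03). In each of the first 5 the groups did not overlap.

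Of 17 finger genes of chromosome 19 with other names, 12 could be tested. *PEG3*, an imprinted gene expressed from the paternal copy, was the member of that list that fell, from 59.4, 67.7 and 64.6 CPM to 42.0, 35.1 and 40.9 CPM (-0.70 ± 0.05, edgeR FDR 1.7e-14). The groups did not overlap. *ZSCAN18* was the one that rose, by 0.27 ± 0.07, from 17.8, 16.8 and 16.3 CPM to 20.7, 20.6 and 20.2 CPM. That call was lost without parental replicate 2 or 3 (edgeR FDR 0.0119 and 0.0174). The other 10 did not pass, and their median with these was 0.01.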

How the data were processed

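PolyA RNA from 3 dishes of LNCaP parental and 3 dishes of PACT KO cells was sequenced on an Illumina NovaSeq. The authors deposited whole-number read counts per NCBI Gene number, not normalized. The submitters' processing notes name bcl2fastq 2.20.0.422, STAR 2.5.3a, StringTie 1.3.3, featureCounts 1.5.3 and the build hg38. The annotation counted and the use of strand are not given in the sources used here. A row without a gene number (0.0688% to 0.0708% of counts) was left out. RefSeq (GRCh38.p14) gave symbols for 27540 of 29806 gene numbers, and all positions.

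Genes were kept by filterByExpr (14462, with all 216 members), scaled by TMM, and tested with glmQLFit and glmQLFTest (2-sided) in edgeR 4.0.16 under R 4.3.3, with Benjamini-Hochberg adjustment over all genes. The thresholds were an FDR under 0.01 and, for DEGs, a fold change of at least 1.5. The SE is the absolute log2 fold change divided by the square root of F. The script was tested on simulated data. With 3 against 3, an exact permutation test cannot reach p under 0.05. Per library the members held 93831 to 117654 reads (0.421% to 0.481%).

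Transcripts of GENCODE 29 gave exon lengths, fingers (C2H2 pattern), the KRAB A box (sequence pattern), shared 50-base stretches and, with Biopython 1.88, protein identities. Tables were handled in pandas 2.3.3 (Python 3.11.15, numpy 2.4.6) and drawn with matplotlib 3.10.9. The alternatives were DESeq2 1.42.0, limma-voom (limma 3.58.1), other scalings and filters, the replicate block, glmTreat, an FDR under 0.05, other member rules, a 500 kb gap between clusters, and each library left out.

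The members, lists and markers were chosen with earlier results of these data known. Named were all DEGs, the 5 members with the highest CPM, 3 genes on each side of the count minimum, in each cluster the member with the smallest p in each direction, at most 5 genes of each list, *PRKRA* and the 5 protein pairs of highest identity. Other genes were named after their values were seen.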

Additional observations from a re-analysis of the deposited data

How the results depend on the processing

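Members higher in PACT KO cells, 40 as reported, numbered 27 (without members sharing exons or sequence, a setting chosen after seeing the data) to 58 (FDR under 0.05) over all alternatives, with 29 in DESeq2, and 30 to 37 of the 40 were called again with a library left out. Members lower, 7 as reported, were 3 with DESeq2, 12 at an FDR under 0.05 and, in a setting chosen after seeing the data, 3 among members of at least 10 CPM. With a library left out they were 3 (parental replicate 1 or 2, or PACT KO replicate 3) to 7, and 4 without PACT KO replicate 1. Downregulated DEGs, 2 as reported, were 1 with DESeq2, upper quartile factors, library totals or a minimum of 300 counts, 0 with glmTreat against 1.5-fold, and 0 (without PACT KO replicate 3) to 2 (without parental replicate 3) with a library left out. The 2 without parental replicate 3 were other members than those reported. There *ZNF132* was under 1.5-fold (log2 -0.58) and *ZNF665* did not pass (edgeR FDR 0.0111). Upregulated DEGs were 2 with glmTreat, against 5. The median log2 fold change, 0.11, was 0.13 with upper quartile factors and 0.14 with library totals, where that of all genes was 0.02 and 0.03. Same-numbered libraries did not deviate together (correlations -0.09, 0.00 and -0.09), none correlated best with its own number, and the libraries share only a number. A fit with the replicate number as a block called 45 members higher and 7 lower and shared 46 of the 47 calls, with 5 upregulated and 2 downregulated DEGs and a median of 0.11.

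Over 14 alternative fits and 35 named genes, 453 of 489 values kept direction and side of the threshold, 31 no longer passed and 5 changed sign, all of members that did not pass. *ZNF146* (-0.02) was at 0.0049 with upper quartile factors and 0.0101 with library totals, and from -0.0386 (without PACT KO replicate 1) to 0.0124 (without PACT KO replicate 3) with a library left out. *ZNF878* (0.21) was below 0 without parental replicate 3 (-0.0708) or PACT KO replicate 3 (-0.1781), in a range up to 0.5729 (without parental replicate 2). *ZNF665* was lost in 8 of them. With DESeq2 *ZNF491*, *ZNF665*, *ZNF226*, *ZNF473* and *ZNF468* did not pass. Counts of the corepressor list stayed within 1.5 times. With a 500 kb gap between clusters, the cluster from 19.7 to 24.1 Mb was the same. Depth limits the lowest members most, where the median SE was 0.11.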
